A study of Mus musculus with 4 samples.

Results

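Arid1b and 9 further genes that encode subunits of the SWI/SNF chromatin remodeler were examined by ATAC-Seq, an assay in which the Tn5 transposase cuts open chromatin, in hematopoietic stem cells that lack Cpt1a and in control cells. The genes were the ATPases Smarca4 and Smarca2, the core subunits Smarcb1, Smarcc1 and Smarcd2, the ARID proteins Arid1a, Arid1b and Arid2, and the bromodomain proteins Pbrm1 and Brd9. Peaks of the 4 libraries were merged where they overlapped by at least 1 bp, and every merged region over one of these genes or the 5000 bp on either side of it (mm10) was kept. This gave 432 of 337776 regions genome-wide, and 169 of the 137553 regions that had a peak in at least 2 libraries. A region is called shared when all 4 libraries held it, only in control when both control libraries and neither Cpt1a-KO (KO) library held it, and only in KO in the reverse case.

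Cells had been sorted from mouse bone marrow, and each genotype was represented by 2 libraries. The control mice were Cpt1a fl/fl (labeled WT) and the KO mice were Cpt1a Δ/Δ (labeled Cpt1a-KO), which carried Vav1-Cre+, a Cre driven by the Vav1 promoter that deletes floxed alleles throughout the blood system. All mice were adults on a C57BL/6, CD45.2 background and of either sex, and the control mice had the floxed alleles, with no Cre named for them. The labels call the cells ltHSCs (long-term HSCs) whereas the study speaks of HSPCs, a wider population, and nothing states whether the libraries came from separate animals or from pools, so differences between libraries of one genotype may be technical.

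SWI/SNF complexes use the energy of ATP to slide or evict nucleosomes and thereby open promoters and enhancers. A core with SMARCC1 and a SMARCD protein is completed in canonical BAF by ARID1A or its paralog ARID1B, in PBAF by ARID2 and PBRM1, and in noncanonical BAF by BRD9. SMARCB1 is a core subunit of BAF and PBAF that noncanonical BAF lacks, and SMARCA4 or SMARCA2 is the motor. Several of these subunits are required for the maintenance or the differentiation of blood stem cells, and mutations of ARID1A, ARID1B and SMARCB1 are known from cancers and developmental syndromes.

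The RefSeq promoter windows (GRCm38.p6, whose coordinates are those of mm10) are shown for the ATPase genes and for the core subunit genes Smarcb1 and Smarcc1. Windows were found for 9 of the 10 members, and Arid2 had none in the table used. Each window covers 250 bases before the RefSeq start, cut where the gene's annotated span begins. Sequences run 5′ to 3′ on the strand of the gene, and capitals mark every match on either strand to 5 motifs. These were the core bound by ETS factors, CCGGAAG, the core bound by NRF1, GCATGCGC, the GC box of SP factors, GGGCGG, the box bound by NFY, spelled CCAAT, and the E-box of MYC and related factors, CACGTG. Smarca4 is shown at chr9:21615919-21616105 (+), Smarca2 at chr19:26604910-26605072 (+), Smarcb1 at chr10:75921615-75921864 (−) and Smarcc1 at chr9:110131774-110132023 (+).
Smarca4: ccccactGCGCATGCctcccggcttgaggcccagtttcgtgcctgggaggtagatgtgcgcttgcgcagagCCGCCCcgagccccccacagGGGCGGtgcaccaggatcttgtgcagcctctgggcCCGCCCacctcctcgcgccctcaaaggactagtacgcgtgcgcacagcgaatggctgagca
Smarca2: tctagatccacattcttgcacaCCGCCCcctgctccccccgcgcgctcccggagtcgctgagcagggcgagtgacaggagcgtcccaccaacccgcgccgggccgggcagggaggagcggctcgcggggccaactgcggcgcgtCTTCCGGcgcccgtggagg
Smarcb1: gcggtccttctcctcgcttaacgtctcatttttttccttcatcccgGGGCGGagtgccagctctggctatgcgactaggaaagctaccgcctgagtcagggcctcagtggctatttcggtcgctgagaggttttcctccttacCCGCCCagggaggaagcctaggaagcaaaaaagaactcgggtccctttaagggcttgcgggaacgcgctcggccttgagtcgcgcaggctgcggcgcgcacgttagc
Smarcc1: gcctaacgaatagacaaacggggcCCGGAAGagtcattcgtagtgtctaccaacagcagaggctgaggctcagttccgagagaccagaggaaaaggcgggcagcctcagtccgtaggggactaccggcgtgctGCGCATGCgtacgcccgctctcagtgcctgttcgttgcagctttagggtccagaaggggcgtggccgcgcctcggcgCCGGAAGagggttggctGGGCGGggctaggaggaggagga

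The RefSeq window of Arid1b (chr17:4994824-4995073) lies inside the span of the gene, because other transcripts start farther upstream, and only the 30 bases around its GC box (chr17:4994863-4994892, +) are shown.
Arid1b: ccccatcctgggGGGCGGcgacggcggcct

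GC boxes were present in the windows of 8 of the 9 matched members, against 32.7% of all 32851 windows in the table. These counts were made over the full 250 bases, uncut, in members and in all windows alike. The ETS core was present in 3 (Smarcc1, Brd9 and Smarca2), against 6.91% of all windows, and the NRF1 core in 2 (Smarca4 and Smarcc1), against 2.26%. At Brd9 the ETS match reaches into the annotated span of the gene, and the cut window does not hold it. The E-box was found only before Pbrm1, against 6.02% of all windows. None of the 9 windows held the CCAAT box, which 33.8% of all windows held. No motif contains another, and a match describes the letters and not the binding of a factor. The Arid1b window was the richest in CpG of the 9 members' windows, with 37 CpG and 76% G or C. Windows of Smarcb1 and Smarcc1 had 21 CpG each (59.6% and 63.6% G or C) and that of Smarcd2 only 4, where the median window of the table had 6 CpG and 52.4%. The Smarcd2 window, like that of Arid1b, lies inside the span of the gene.

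The lists held 277531 and 262443 peak summits in the control libraries and 266163 and 240881 in the KO libraries (autosomes and X), so KO 2 had the shortest list. It also had the smallest proportion of summits reaching a −log10 q of 5 (35.1%, against 40.5% to 46.8% in the others), where q is the p-value of a peak against its local background after adjustment for multiple testing. Each peak carries a fold, its signal over that background. Because folds depend on depth, which is unknown here, the highest fold within a region was expressed as a percentile among all intervals of the same library (100 being the strongest). A shared region lay within 500 bp of the starts of 8 of 8 stem cell genes (among them Procr, Kit, Mecom and Hlf), 4 of 4 B cell genes (median percentile 47.5), 3 of 4 myeloid, 1 of 4 erythroid, 0 of 4 T cell and 0 of 4 non-blood genes. The T cell genes Cd3g and Lck and the myeloid gene Elane had a start region in 3 libraries. Percentiles reached 66.4 at Cd3g and 53.2 at Lck. No non-blood gene had one in more than 1 library. A change in the share of a cell type and a change of accessibility within each cell cannot be told apart in such pools, and the part of other cell types in any value below was not tested. At Cpt1a itself 11 of 18 regions were shared and 2 were only in control, and peak lists do not check the deletion.

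All 10 genes had a region of all 4 libraries at a gene start, whereas 65.9% of 17274 protein-coding genes with a RefSeq start did. Control and KO percentiles overlapped at 8 of them. Across the genome the region at the start was lower in both KO libraries than in both control libraries for 9.4% of genes with a shared region there, and higher in both for 28.8%, so the 2 lower and 0 higher genes among the 10 are read beside those shares. Smarcd2 enters this tally by a weak region at a RefSeq start inside its span. The strong region at the upstream end of that span, described below, was higher in both KO libraries. The members were chosen with the contrast of control and KO known, so differences between genotypes are described here and not tested. For Arid2, with no RefSeq start in the table, a region at the end of the gene was taken. With 2 libraries against 2, the smallest two-sided exact permutation p is 0.333.

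The ATPase genes had strong promoter peaks. The Smarca4 region (chr9:21615608-21616820) stood at percentile 98.9 and 99.0 in control and 99.1 and 99.0 in KO, with folds of 20.7, 20.9, 21.0 and 19.5. Its summits lay at positions −139 to −137 relative to the start in every library, inside the stretch printed above. No library stood apart, and the genotypes overlapped. At Smarca2, the alternative motor subunit, the region (chr19:26604498-26605348, also within the noncoding gene Gm52395) had percentiles of 95.8 and 94.4 in control and 95.0 and 97.5 in KO, the highest being KO 2, and the ranges overlapped.

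Among the core subunits, Smarcc1, which encodes a scaffold on which the complex assembles, had a start region near the top of every list, and control and KO did not overlap there. Percentiles at chr9:110131497-110132551 were 98.7 and 99.1 in control and 97.4 and 97.6 in KO. Both KO libraries were the lower ones, with a mean difference of −1.37 percentile points and folds of 20.1 and 21.1 against 17.2 and 16.7. The control values lay above, and the KO values just below, the genome-wide upper quartile of 97.9. The summits lay at −114, −114, −90 and −112 relative to the start in control 1, control 2, KO 1 and KO 2, near the NRF1 core printed above, which spans bases 117 to 110 before the start. Smarcb1, which contacts the nucleosome, had percentiles of 97.4, 98.5, 98.1 and 97.1 (control 1, control 2, KO 1, KO 2) at chr10:75920884-75922122, with overlap between genotypes. Its summits were at −28 to −22. Smarcd2 encodes a subunit needed for granulocyte formation, and its RefSeq start in the table used lies inside the annotated span of the gene. A weak region of 248 bp covered that start, with percentiles of 3.40, 31.0, 14.8 and 38.4, below those of the other members. A strong region 5.2 kb upstream covered the upstream end of the annotated span (chr11:106272353-106273337, overlapping Tcam1) at 92.6 and 94.2 in control and 94.5 and 95.3 in KO. There both KO libraries were higher, by 1.47 points.

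The ARID genes of BAF had weaker starts than Smarcc1 and Smarcb1. At Arid1a the strongest start region (chr4:133753773-133754608, at the downstream one of its 2 RefSeq starts) stood at 88.4 and 85.5 in control and 86.9 and 90.8 in KO. Its upstream start (chr4:133756692-133757787) had 80.8, 73.0, 82.8 and 78.8 in the same order. At Arid1b a region of 2189 bp (chr17:4993905-4996093) spanned both the first base of the gene and the RefSeq start, with percentiles of 91.2 and 86.4 in control and 89.5 and 91.0 in KO. Its summits were 62 to 70 bases inside the first base of the gene, which is −715 to −707 relative to the RefSeq start. Genotypes overlapped at each of these starts, and the Arid1b values all fell between the genome-wide quartiles for shared start regions (86.3 and 97.9, median 95.0).

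For PBAF, the region at the end of Arid2 with the lower coordinates (chr15:96286312-96287825) had percentiles of 86.9, 79.7, 88.6 and 81.0, with more spread between libraries of a genotype than between genotypes. Pbrm1, whose bromodomains read acetylated histones, had 97.5 and 97.1 in control and 97.1 and 95.7 in KO at a region shared with the neighboring gene Gnl3 (chr14:31018767-31019672). Both KO values were the lower ones, with a mean difference of −0.952 points and the nearest pair of libraries only hundredths of a point apart. Brd9, the mark of noncanonical BAF, shared its region with Trip13 (chr13:73937106-73938499) and had 97.8, 98.4, 98.8 and 97.0, so that KO 1 was the highest and KO 2 the lowest.

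**Figure D1:**
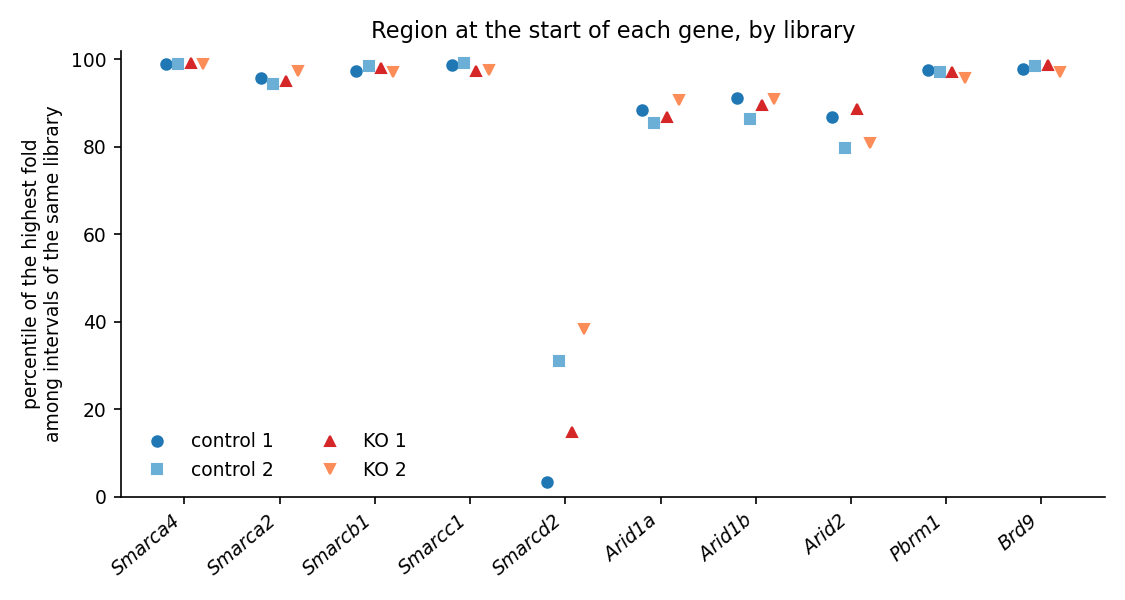
Percentile of the region at the start of each of the 10 genes (y axis, percentile of the highest fold among intervals of the same library) by gene (x axis), with a point per library. The points of 8 genes overlap between control and KO, Smarcc1 and Pbrm1 are slightly lower in both KO libraries, and only the RefSeq start of Smarcd2 lies below 40.

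Arid1b was chosen by the number of its regions only in control, 8, which 6 genes including Arid1b had, while 9 genes had 7 and 2 genes had 9. That count is a description and carries no test. The 9 other genes were taken as subunits of the same complexes. Arid1b was also rich in peaks. Within the gene (chr17:4994297-5347656, 353.4 kb) and its flanks there were 198 regions, of which 88 had a peak in at least 2 libraries, and only 3 of 21631 protein-coding genes had more. Genes at least as long numbered 431 and had a median of 14.

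Of these 88 regions 47 (53.4%) were shared, against 58.4% genome-wide, 14 were in 3 libraries and 18 were in 1 control and 1 KO library. The 8 only in control made up 9.09%, beside 6.05% of all regions, and the region only in KO made up 1.14%, beside 3.47%. The libraries held 110, 99, 98 and 87 of the Arid1b regions (control 1, control 2, KO 1, KO 2). This is nearly the order of their summit counts but not of their region counts. Genome-wide they held 172740, 152879, 168591 and 163574 regions, the fewest in control 2. Of the 14 regions in 3 libraries, 8 were absent from KO 2, 3 from KO 1, 1 from control 1 and 2 from control 2. Those missing from KO 2 only made up 9.09% of the Arid1b regions in at least 2 libraries, beside 6.56% genome-wide. When every list was cut to the length of that of KO 2, the count of regions only in control at Arid1b went from 8 to 5.

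**Figure D2:**
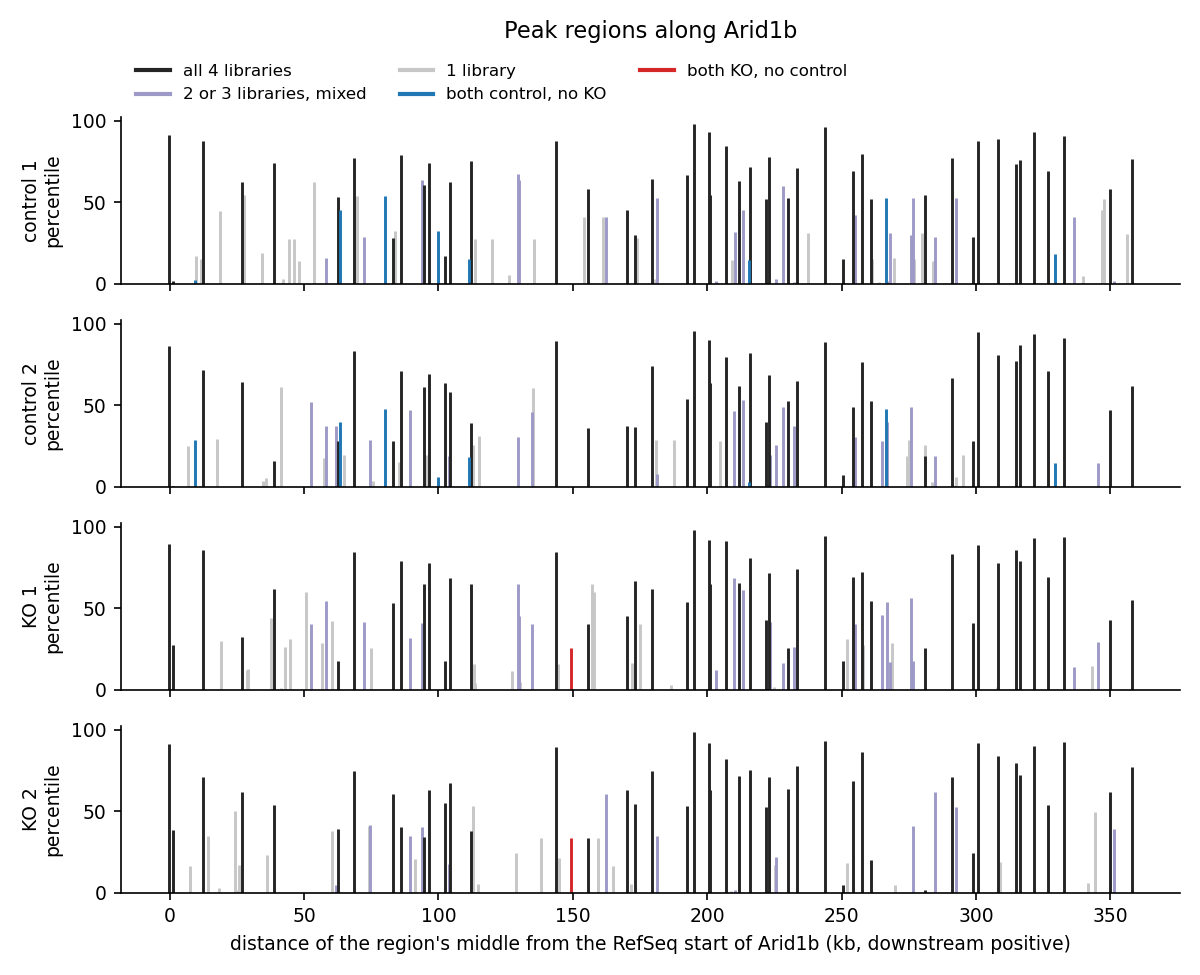
Peak regions along Arid1b in each library (x axis, distance of the region's middle from the RefSeq start in kb, downstream positive; y axis, percentile of its highest fold), with a line per region, colored by the libraries that held it. The tallest lines in every panel are shared regions, with the highest near 195 kb, and the 8 regions only in control and the 1 only in KO are short.

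The regions only in control at Arid1b all lay within the gene body and were weak. The strongest by mean percentile, chr17:5074819-5075662, 80.2 kb from the start, had folds of 3.46 and 3.40 and percentiles of 53.8 and 47.5 in control 1 and control 2. Next came chr17:5261395-5261528 (266.4 kb), with percentiles of 52.5 and 47.8, and chr17:5058083-5058731 (63.3 kb), with 45.1 and 40.02. The others were lower in mean percentile, and the control libraries were apart in some of them and close in others. The region at 9.5 kb (chr17:5004454-5004727) had percentiles of 2.43 and 28.6, that at 99.8 kb (chr17:5094827-5095020) 32.4 and 6.08, and that at 111.4 kb (chr17:5106324-5106666) 15.1 and 18.4. The last of them were at 215.4 kb (chr17:5210353-5210635, within the gene Gm34854 as well), with 14.6 and 2.79, and at 329.5 kb (chr17:5324430-5324740), with 18.3 and 14.6. None of the 8 reached a −log10 q of 5 in either control library, the range being 0.535 to 3.17, whereas the shared regions of the gene had a median of 8.82 and 9.15 in the same libraries. Regions only in control were weak genome-wide as well. Their median −log10 q was 1.47 and 1.70 in control 1 and control 2, beside 2.27 and 2.67 for the 8. Of the 8325 genome-wide, 401 and 522 reached 5. The distance of the 8 to the nearest shared region ran from 166 to 5217 bp. The only region particular to KO, chr17:5144447-5144535 (89 bp, 149.4 kb), was equally weak, with folds of 2.61 and 2.85 and percentiles of 25.6 and 33.9.

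When peaks under a −log10 q of 5 were left out, Arid1b had 0 regions only in control and 0 only in KO, beside 7.02% and 0.807% of all regions remaining. The 100000 strongest summits of each library likewise gave 0 in either direction, beside 2.75% and 3.11%. With every list reduced to the length of the shortest, 5 regions only in control (4.75% genome-wide) and 1 only in KO (3.9%) were left at the gene. Other definitions of presence gave more regions only in KO. When a library had to cover at least 0.5 of a region, 6 were only in control (11.3% genome-wide) and 3 only in KO (3.89%). Windows reaching 200 bp to either side of each summit gave 10 (5.39%) and 5 (3.89%). The regions of Arid1b in at least 2 libraries were not recounted under any of these settings. Its counts therefore have no share of their own to set beside the percentages, and no excess or deficit is read from them.

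**Figure D3:**
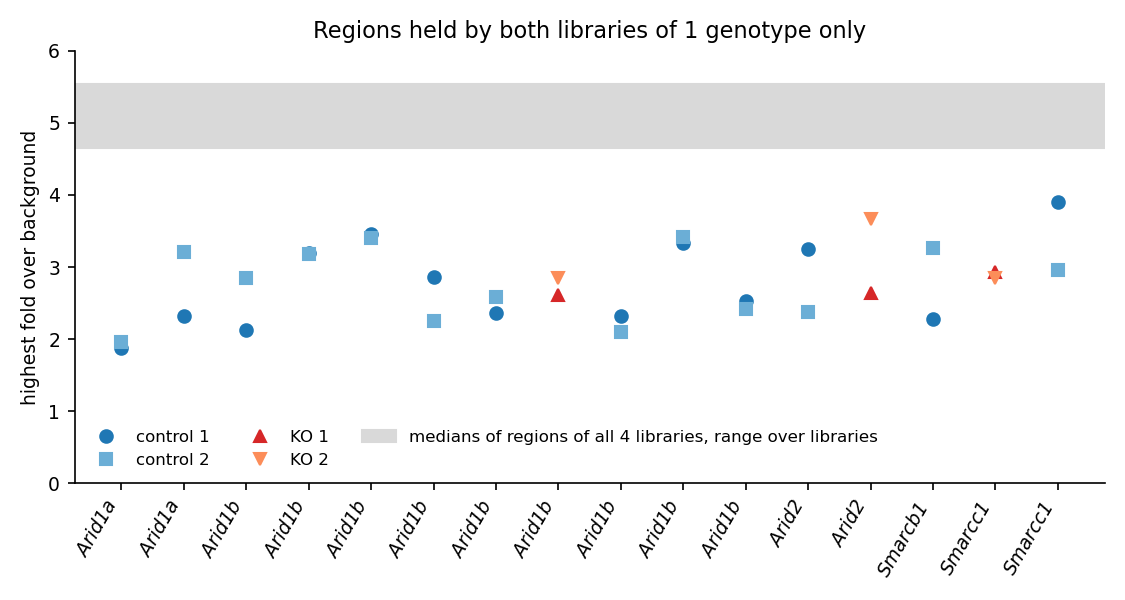
Highest fold over background (y axis) in each of the 13 member regions only in control and the 3 only in KO (x axis, labeled by gene and ordered by gene and position), with a point for each library that held the region; the gray band spans the lowest to the highest of the 4 library medians of the 87 shared member regions. The points lie between 1.87 and 3.90, all below the band, which runs from 4.66 to 5.54.

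Shared regions allowed a graded comparison along Arid1b. The strongest, in the gene body 195 kb from the RefSeq start (chr17:5189536-5190686), had percentiles of 97.7 and 95.3 in control and 97.9 and 98.4 in KO, above those of the gene's own start. Its folds were 18.02, 14.9, 18.1 and 18.02, so that control 2 was the library apart, and both KO percentiles were above both control percentiles by a mean of 1.67 points. Of the 47 shared regions, 10 (21.3%) were higher in both KO libraries and 3 (6.38%) lower in both, beside 22.5% and 14.9% genome-wide. The median KO minus control difference was −0.27 points (0.48 genome-wide). A single shared region of the 10 genes had a typical SD between libraries of a genotype of 4.40 points. That spread belongs to one region and is not the error of the median. With lists of equal length, 14 were higher (32.4% genome-wide) and 0 lower (9.99%), and with the −log10 p in place of the fold 7 were higher (22.1%) and 5 lower (15.2%).

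Regions with the widest separation at Arid1b were weak ones. A small region 1.3 kb from the RefSeq start (chr17:4996229-4996514) had percentiles of 1.70 and 0.664 in control and 27.3 and 38.4 in KO, a difference of 31.7 points. Its folds were 2.08 and 1.90 in control and 2.70 and 3.09 in KO. At 83.1 kb (chr17:5077992-5078430) they were 27.9 and 28.2 in control and 52.9 and 60.6 in KO, and at 173.2 kb (chr17:5168075-5168524) 29.8 and 36.6 against 66.7 and 54.2. All 3 were higher in both KO libraries. In the opposite direction, the region at 26.9 kb (chr17:5021518-5022398) had 62.6 and 64.1 in control and 32.6 and 61.5 in KO, so that its difference of −16.3 came mostly from KO 1. A stronger region at 321.6 kb (chr17:5316318-5317064) had 93.4 and 93.8 against 92.9 and 90.0. These 5 were singled out after their values were seen.

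The window itself decided little at the start side of Arid1b, where the next region outside was 13813 bp away. On the other side the last region inside was 4970 bp from the gene, with percentiles of 76.7, 61.8, 55.1 and 77.1, and the first outside was 10048 bp away and held by control 1 and KO 2 only (31.0 and 16.9).

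At the 9 other genes, 81 regions were held by at least 2 libraries and 40 of these (49.4%) by all 4. Only in control were 5 (6.17%, beside 6.05% genome-wide) and only in KO were 2 (2.47%, beside 3.47%). They lay at Arid1a (2 only in control), Arid2 (1 in each direction), Smarcc1 (1 in each direction) and Smarcb1 (1 only in control). Smarca4, Smarca2, Smarcd2, Pbrm1 and Brd9 had 0 in either direction. Over all 10 genes the count was thus 13 only in control (7.69%) against 3 only in KO (1.78%), while 39 regions (23.1%, beside 16.2% genome-wide) were held by 1 control and 1 KO library. A further 263 regions (60.9%) were held by 1 library alone, close to the 59.3% of all regions.

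The strongest of the 5 by mean percentile was in the body of Smarcc1, 97.4 kb from its start (chr9:110229247-110229514), with percentiles of 62.5 and 36.3 in control 1 and control 2. At Arid2 a region at chr15:96343023-96343235 had 51.6 and 13.7, and at Smarcb1 one at chr10:75913145-75913268 had 13.8 and 45.9. In each, the control libraries differed widely from each other. The Arid1a regions had 14.5 and 40.4 (chr4:133680269-133680661) and 0.404 and 1.12 (chr4:133674081-133674316), the latter among the weakest peaks of both lists. Only in KO were chr15:96376821-96377056 at Arid2, with 26.2 and 60.5 in KO 1 and KO 2, a mere 121 bp from a shared region, and chr9:110159099-110159238 at Smarcc1, with 40.3 and 33.9. As at Arid1b, 0 of the 13 regions only in control and 0 of the 3 only in KO reached a −log10 q of 5 in any library, the highest being 3.57. Genome-wide, 401 and 522 of 8325 regions only in control reached 5 in control 1 and control 2. Of 4778 only in KO, 147 and 52 did so in KO 1 and KO 2. Median folds of the 13 were 2.52 and 2.84 in the control libraries, beside 2.90 and 2.91 in regions only in control genome-wide. In the shared regions of the 10 genes they were 5.50 and 5.34.

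**Figure D4:**
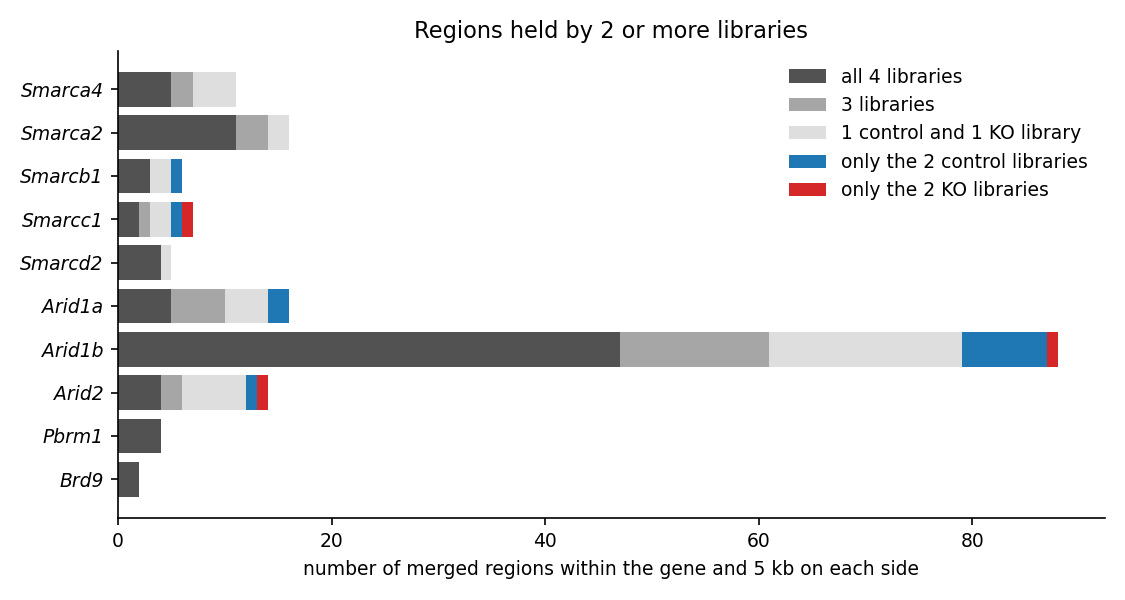
Number of merged regions held by at least 2 libraries (x axis) for each of the 10 genes with 5000 bp on each side (y axis), colored by the libraries that held them. Arid1b has 88, no other gene has more than 16, and the 13 regions only in control and the 3 only in KO are fewer than the 87 shared ones, although at Smarcc1 they number 2 of 7, as many as the shared ones.

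Peaks within the genes, away from the starts, were in several cases as strong as the promoters. The strongest at Arid1a, 50.0 kb into the gene (chr4:133706318-133707314), had percentiles of 93.0 and 97.6 in control and 97.5 and 95.9 in KO, above both of its starts. That at Arid2 (chr15:96377178-96377964) had 95.8 and 96.2 against 96.0 and 92.9. In both genes control and KO overlapped. At Smarca2 the strongest, 41.1 kb into the gene (chr19:26645835-26646664), was lower in both KO libraries, with 94.3 and 95.0 against 91.9 and 92.4 and folds of 13.6 and 14.6 against 11.0 and 10.9. That at Brd9 (chr13:73955489-73955894, 17.9 kb) was lower as well, with 79.5 and 70.5 against 64.7 and 66.4. At Smarca4 (chr9:21630675-21630962, 14.6 kb) the strongest was higher in both KO libraries, with 85.1 and 72.6 against 90.7 and 85.3. That last pair shows how near the sets lay, with KO 2 only fractions of a point above control 1. At Pbrm1 (chr14:31062344-31062569) values were 80.7, 74.0, 78.9 and 76.2, and the genotypes overlapped. The strongest regions outside the start of Smarcb1 (chr10:75892945-75893825, percentiles of 97.1, 98.5, 98.6 and 98.1) and of Smarcc1 (chr9:110244864-110246578, 75.8, 67.2, 80.8 and 74.2) lay in the flanks, over the neighboring genes Derl3 and Cspg5. Both overlapped between genotypes.

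Over the 87 shared regions of the 10 genes, 11 (12.6%) were lower and 16 (18.4%) higher in both KO libraries, beside 14.9% and 22.5% genome-wide. The median difference was −0.0043 points. Without Arid1b, 8 of 40 (20%) were lower and 6 (15%) higher, and Smarca2 had the most lower ones, 3 of 11. Besides the region at 41.1 kb these were at 142.9 kb (chr19:26747578-26748576), with 93.1 and 92.3 against 91.9 and 89.4, and at 106.3 kb (chr19:26711377-26711536), with 68.6 and 68.5 against 59.7 and 33.9. The last of these and the Brd9 region at 17.9 kb were the only member regions called only in control when peaks under a −log10 q of 5 were left out. All 4 libraries held both of them when every peak was counted, with −log10 q of 2.76 and 1.02 in KO at Smarca2 and 3.48 and 3.19 at Brd9.

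**Figure D5:**
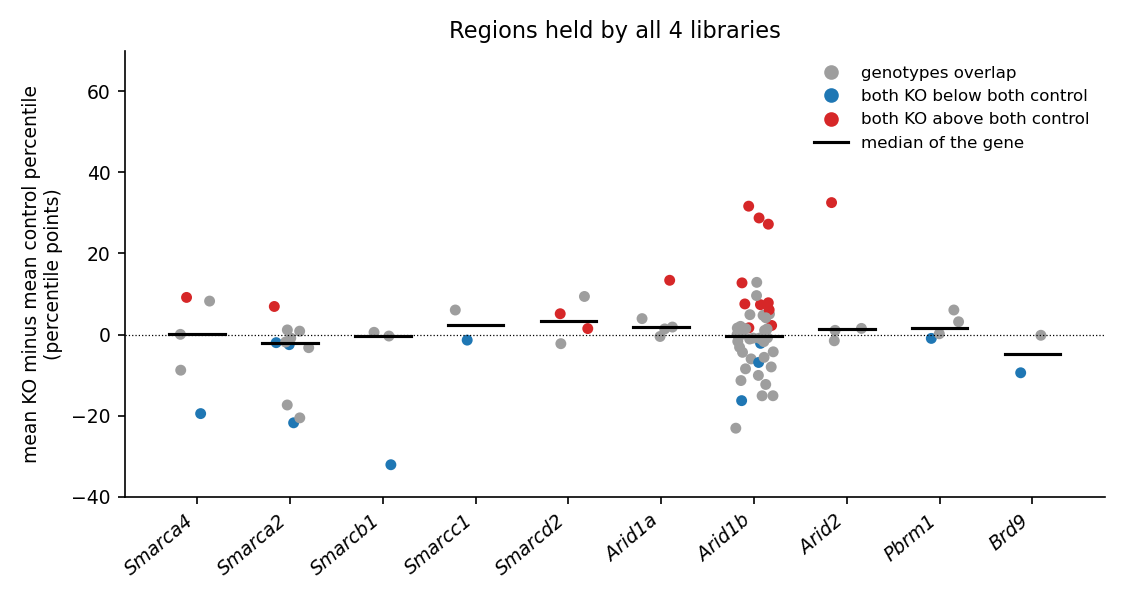
Mean KO minus mean control percentile (y axis, percentile points) of each of the 87 member regions held by all 4 libraries, by gene (x axis), with the horizontal spread added for legibility and a bar at the median of each gene. Points lie on both sides of 0 at most genes, and the widest differences, up to 32.5 in the flank of Arid2 and −32.1 in the flank of Smarcb1, are those of weak regions.

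The widest negative difference was in the flank of Smarcb1 over Mmp11 (chr10:75926439-75926871), with 41.0 and 40.4 in control against 16.1 and 1.03 in KO. The widest positive one was in the flank of Arid2 (chr15:96408497-96409058), with 13.8 and 52.2 in control against 64.7 and 66.4 in KO. Control 1 was the library apart there. Both were picked out after their values were seen.

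A list of 18 further SWI/SNF subunit genes (Smarcc2, Smarcd1, Smarcd3, Smarce1, Actl6a, Actl6b, Dpf1, Dpf2, Dpf3, Phf10, Brd7, Ss18, Ss18l1, Bcl7a, Bcl7b, Bcl7c, Bicra and Bicral) had 146 regions in at least 2 libraries, of which 87 (59.6%) were shared. Only in control were 9 (6.16%), and 5 (3.42%) were only in KO, close to the genome-wide 6.05% and 3.47%. Bicral and Bicra, paralogs found in noncanonical BAF, had 4 and 2 regions only in control and 0 and 1 only in KO, among 19 and 25. Dpf3, a PHD finger subunit known from heart and muscle, had 2 in each direction among 17. Of the 87 shared regions, 11 (12.6%) were lower and 21 (24.1%) higher in both KO libraries.

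The genes whose regions were spread over the 4 libraries most like those of Arid1b were sought among 773 genes with at least 20 regions in 2 or more libraries, by the percentage of regions that would have to change between the 11 patterns of presence. Arhgef3 was the nearest (7.21%), followed by Pard3 (7.49%) and Myo16 (8.10%). Arhgef3 had 49 such regions, of which 26 were shared, 4 only in control and 1 only in KO. Pard3 had 37 regions, 20 of them shared, with 2 only in control and 1 only in KO. Myo16 had 31, of which 17 were shared, 2 only in control and 0 only in KO.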

How the data were processed

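ATAC-Seq was done on sorted bone marrow cells of 2 control and 2 KO libraries. Peak calling was done by the authors per library, and the submitters' processing notes name Bowtie2, MACS2 and the build mm10, with versions not given in the sources used here. The deposited lists give, for each summit, a fold (the ratio of signal to local background), a −log10 p-value, a −log10 q-value and an integer score, the last of which was not used. Read counts are not part of these deposited lists. Depth, and with it the precision of a value, is therefore unknown, and the DiffBind and edgeR comparison of the study could not be run. Each list reached down to a −log10 p of 2. Summits written as a chromosome position (253 to 492 per list) were read as positions.

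Merging used Python 3.11.15 with numpy 2.4.6 and pandas 2.3.3 and was limited to autosomes and X. Figures were drawn with matplotlib 3.10.9. A start region overlapped 500 bp on either side of a RefSeq start, or 1000 bp at the ends of a gene with no start given. Where several did, the one held by most libraries and then of the highest mean percentile was used. Gene spans, starts and promoter windows came from RefSeq (GRCm38.p6). Exon and intron annotation was not used here. The counting of regions was tested on simulated lists of isolated sites without false peaks. That checks the counting and not how reliable a presence call is in these lists. Named regions were the start region of every member, its strongest other shared region and each region of one genotype, with the additions marked in the text. The other genes named were subunit genes with at least 2 regions of one genotype, the 3 genes most like Arid1b and Cpt1a. Members and lists were chosen with earlier results of these data known. Alternatives were a −log10 q threshold of 5 (applied to presence and absence, or to presence with absence meaning no peak), lists of equal length (240881 summits), the 100000 strongest summits, coverage of at least 0.5 of a region, windows of 200 bp around summits, no flank, starts within 100 bp, −log10 p in place of fold, percentiles among shared regions and leaving out each library.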

Additional observations from a re-analysis of the deposited data

How the results depend on the processing

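Presence calls depended on the processing, whereas all 10 genes kept a start region in all 4 libraries with lists of equal length and with starts within 100 bp. Using −log10 p in place of fold changes ranks and not presence, so it could not move this count. A −log10 q threshold was not run for the count, and the Smarcd2 start region reached at most 4.07 in any library. With peaks under a −log10 q of 5 left out, regions only in control and only in KO numbered 2 and 0 over the 10 genes (Arid1b 0 and 0, the 18 further subunit genes 1 and 0), and 0 of the 13 original regions were among them. With no peak of any score required for absence, the counts were 0 and 0 (Arid1b 0 and 0), with no genome-wide share computed. The 100000 strongest summits gave 1 and 0 (Arid1b 0 and 0, further subunit genes 0 and 1), beside 2.75% and 3.11% genome-wide. Lists of equal length gave 8 only in control (Arid1b 5) and 3 only in KO (Arid1b 1), beside 4.75% and 3.9% genome-wide. Of the 13, 7 were kept. These lists left 0 shared Arid1b regions lower in both KO libraries and 14 higher, beside 9.99% and 32.4% genome-wide. Coverage of at least 0.5 gave 12 only in control (Arid1b 6) and 5 only in KO (Arid1b 3), beside 11.3% and 3.89% genome-wide. Windows around summits gave 14 (Arid1b 10) and 7 (Arid1b 5), beside 5.39% and 3.89%. Of the 13 original regions, coverage kept 5 and windows kept 10. Member regions in at least 2 libraries were not recounted under these settings, so no shares of the members are given. With −log10 p in place of fold, 5 shared Arid1b regions were lower and 7 higher, beside 15.2% and 22.1% genome-wide. Leaving out each library in turn, with the lone library of its genotype deciding, gave 23 to 96 only in control and 5 to 75 only in KO over the 10 genes (Arid1b 12 to 43 and 2 to 30). Shared regions then counted 22 to 34 lower and 29 to 42 higher (Arid1b 11 to 17 and 14 to 23). Genome-wide shares were not computed for the runs without a library, so their counts are not read as a result about the members. Apart from the construction of these settings the cause was not tested. No paired analysis was possible because the results come from no test to which a block could be added, and the labels do not say that a replicate number ties a control to a KO library.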
